A study of Mus musculus with 4 samples.

Results

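The genes of cardiac calcium handling and electrical excitation were examined in the second heart field (SHF) region of Hoxb1 mutant and wild-type mouse embryos. The set held 34 genes that were listed by name, and 33 of them were among the 15803 genes with a value. The remaining gene, Sln, which encodes the pump regulator sarcolipin, was not analysed here. RNA of the SHF region, the mesoderm from which the growing heart tube recruits new muscle at its inflow and outflow ends, had been sequenced in 2 libraries from Hoxb1Mu embryos and 2 libraries from WT embryos, all at embryonic day 8.5. The study describes the mutant embryos as Hoxb1-/-, that is, homozygous for a mutant allele of the homeobox gene Hoxb1, and the WT embryos as wild-type. Its methods list Hoxb1GFP among the alleles behind the name Hoxb1- and mention no Cre driver for this comparison. The comparison of the genotypes asked whether loss of Hoxb1 alters the cardiac differentiation programme of the progenitors. Its methods describe RNA of several embryos pooled into each replicate, and the labels describe amplification of the cDNA from a very small amount of RNA. The libraries of a group were not said to come from separate litters, so a p-value here measures the spread between these pools, which may be partly technical.

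In a heart muscle cell, voltage-gated channels in the plasma membrane let calcium in, ryanodine receptors answer by releasing calcium from the sarcoplasmic reticulum, and the pump SERCA2 and the sodium-calcium exchanger clear it again. Calsequestrin, triadin and junctophilins hold the store and its release sites together, potassium channels end the action potential, HCN channels drive the pacemaker potential, and connexins pass the current between cells. The heart tube starts to beat at about this stage. Many of these genes are also used outside cardiomyocytes, by neurons, smooth muscle or all cells, so in a dissected region the level of a gene adds up several cell types, and fewer cells of a type cannot be told apart from less RNA per cell.

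The reads assigned to listed genes ranged from 31331595 to 34383760 per library. Hoxb1 itself had 137 and 167 normalised counts in Hoxb1Mu and 682 and 617 in WT, a log2 fold change of -2.09 ± 0.14 (SE, limma adjusted p = 0.0806, DESeq2 adjusted p = 2.73e-21). The cardiomyocyte sarcomere list was present in all libraries, with summed levels of 109868 and 124116 normalised counts in Hoxb1Mu and 92036 and 90192 in WT. Both Hoxb1Mu libraries lay above both WT libraries for 19 of its 20 measured genes (26.4% of all tested genes did). Of 16 SHF genes, all measured, 10 were higher and 6 lower in Hoxb1Mu, with summed levels of 20265 and 21840.4 against 21036 and 21519. Of 8 neural crest genes 7 were higher (sums of 9441 and 10713 in Hoxb1Mu, 7465 and 7701 in WT), whereas all 10 yolk sac endoderm genes were lower (sums of 74679.6 and 33999.5 in Hoxb1Mu, 122025 and 113789 in WT). Summed levels of the other lists that could hold such channels lay closer together, with 9875 and 10715 in Hoxb1Mu and 9764 and 9041 in WT for 10 neural tube genes (7 higher), 18166 and 17217 in Hoxb1Mu and 18394 and 17664 in WT for 6 smooth muscle genes (5 higher), and 14247.5 and 13389 in Hoxb1Mu and 13772 and 13814 in WT for 8 endothelial genes (6 higher). The defining skeletal muscle genes Myod1, Myog and Myf6 were not analysed here, and Myf5 had at most 27.7 normalised counts in any library. Some libraries stood apart. Hoxb1Mu 1 was the only one with transcripts of the Y-linked genes Ddx3y, Uty, Kdm5d and Eif2s3y above 4.81 normalised counts (1131 to 2205 there). Transcripts of Xist, which is made from the inactive X chromosome, numbered 111 and 5935 in Hoxb1Mu, against 26992 and 32024 in WT (log2 fold change -5.17 ± 1.66, limma adjusted p = 0.205). Xist was thus lower in both Hoxb1Mu libraries, whereas the Y-linked transcripts set only Hoxb1Mu 1 apart. WT 2 had the most transcripts of primitive red blood cells, with a sum of 16092 against 604.5 in WT 1. Levels of Xist and the Y-linked genes thus differed in part along with genotype. With 2 libraries a group, a difference in embryo sex cannot be told apart from that in genotype. None of the 33 genes lies on a sex chromosome, which does not bear on effects of sex on other chromosomes. The part of all these differences between libraries in the results below was not tested.

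Calcium handling and ion channel genes were mostly higher in Hoxb1Mu, by small amounts. Of the 33 genes, 26 were higher, beside 50.1% of all tested genes, and 7 lower. The median log2 fold change was 0.23, or 1.17-fold, while the median of all 15760 tested genes was 0.00061. Both Hoxb1Mu libraries lay above both WT libraries for 22 genes and below them for 2 genes, Camk2g and Kcnj3, and the groups overlapped for 9. Over all tested genes, 26.4% lay above and 27.1% below in the same way, and for 53.5% the groups did not overlap. In limma, the main test, 0 of the 33 genes passed an adjusted p of 0.05 (smallest 0.142, for Cacna1h), as did 0% of all tested genes, and edgeR also called 0 of the 33 and 0% of its genes. At an unadjusted p under 0.05, limma gave 11 higher and 2 lower genes, beside 8.80% and 9.82% of all tested genes. At the same limit edgeR gave 12, beside 2869 of the 15760 genes tested by limma (edgeR itself tested 15732). DESeq2 on the recovered reads called 2 genes higher, Cacna1h and Gjc1, and 0 lower, beside 1.50% and 2.02% of all tested genes (3.53% in either direction). It had 11 at an unadjusted p under 0.05, beside 2075 of the 15760 tested genes. DESeq2 gave no adjusted p to 5 genes of low counts, Casq2, Trdn, Fkbp1b, Pln and Kcnq1.

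**Figure D1:**
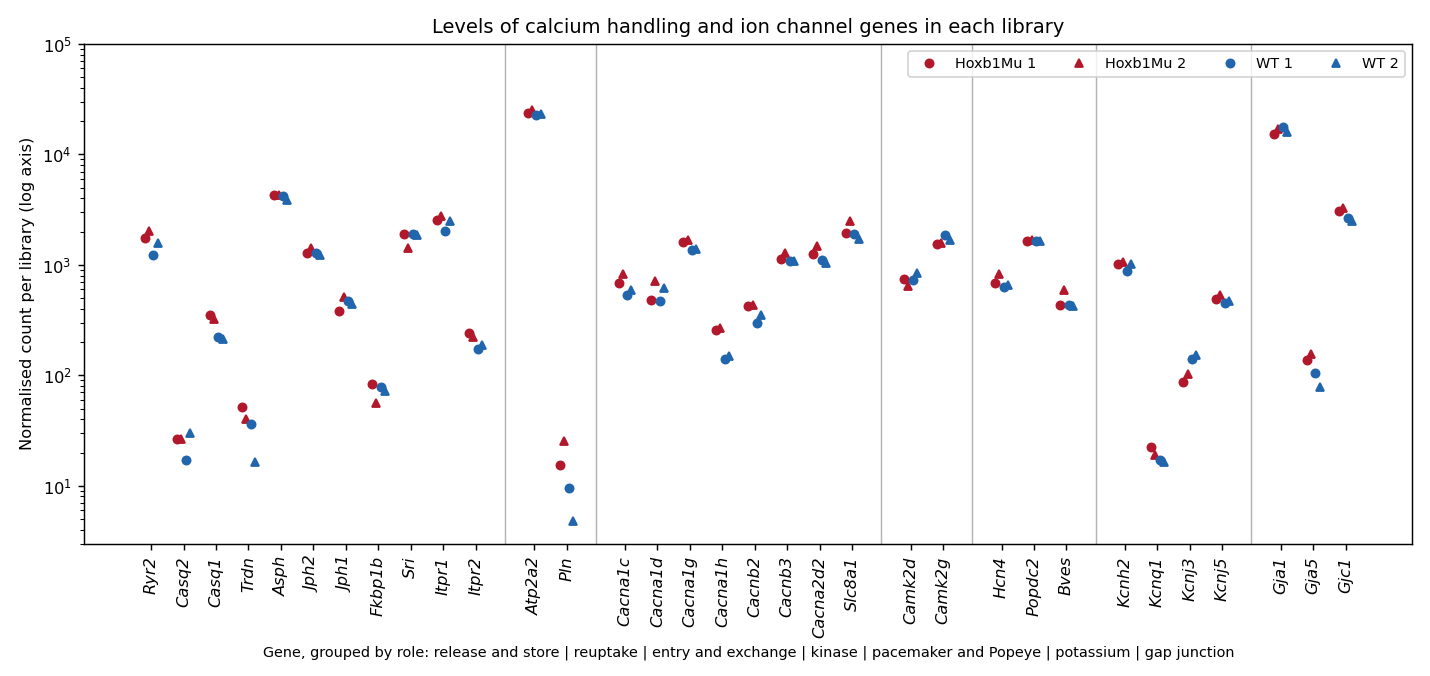
Normalised counts (log axis) of the 33 genes in each library, grouped by role along the horizontal axis, with Hoxb1Mu in red and WT in blue, circles for the first and triangles for the second library of a group. Levels run from 4.81 normalised counts for Pln in WT 2 to 25040 for Atp2a2 in Hoxb1Mu 2, and most red points sit slightly above the blue ones of the same gene.

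The size of the shift differed between the mutant libraries. Measured against the WT mean on the log2 scale, the 33 genes had a median of 0.11 in Hoxb1Mu 1 and of 0.28 in Hoxb1Mu 2, and 25 of the genes were higher in Hoxb1Mu 2 than in Hoxb1Mu 1 (49.6% of all tested genes were). The sarcomere list ran the same way, with medians of 0.35 in Hoxb1Mu 1 and 0.54 in Hoxb1Mu 2, and so did the neural crest list with 0.45 and 0.56, while the yolk sac list stood at -0.58 and -1.71. Without Hoxb1Mu 1, limma called 6 of the 33 genes, namely Cacna1c, Cacna1h, Cacna2d2, Slc8a1 and Gjc1 as higher and Sri as lower, beside 5.97% of all tested genes. Without Hoxb1Mu 2 it called 0 of them, beside 0.235% of all genes, and without WT 1 or WT 2 it called 0 of all genes. Each of these fits leaves 1 library alone in its group, whose spread is assumed to be that of the other group.

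The 8 genes of the set for calcium entry and exchange at the plasma membrane ran one way. Their log2 fold changes lay between 0.12 and 0.86 with a median of 0.32, 7 lay above WT in both Hoxb1Mu libraries (26.4% of all tested genes did), and 5 had an unadjusted limma p under 0.05 (8.80% on the higher side over all tested genes). Voltage-gated calcium channel genes outside the set did not share this direction, with 4 of 9 measured genes higher and 5 lower (median -0.064). Cacna1h, which encodes the T-type channel Cav3.2, rose in the DESeq2 test. It had 259 and 267 normalised counts in Hoxb1Mu, against 141 and 148 in WT. The libraries of each group lay close together and the groups far apart, giving a log2 fold change of 0.86 ± 0.13 or 81.3% more (DESeq2 adjusted p = 0.0166, limma adjusted p = 0.142). The DESeq2 call depended on having all 4 libraries, since its adjusted p was 0.280 without Hoxb1Mu 1, 0.970 without Hoxb1Mu 2 and 0.683 without WT 1, and without WT 2 it gave none. The log2 fold change itself stayed between 0.82 and 0.89 when any library was left out. An exonic stretch of 158 bases of Cacna1h is shared with Tpsg1 on the other strand, and the strand setting of the counting is not given in the sources used here.

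The other T-type channel gene, Cacna1g (Cav3.1), had 1604 and 1681 normalised counts in Hoxb1Mu and 1378 and 1383 in WT. Its groups also did not overlap, with a log2 fold change of 0.25 ± 0.062 (limma adjusted p = 0.160). Cacna1g lies on chromosome 11, 1.93 megabases from Hoxb1. Cacna1c, which encodes the L-type channel Cav1.2 of working heart muscle, had 685 and 822 normalised counts in Hoxb1Mu, against 537 and 589 in WT. Both Hoxb1Mu libraries were above both WT libraries and the log2 fold change was 0.42 ± 0.12, with an adjusted p of 0.178 in limma and 0.118 in DESeq2. The L-type channel gene of pacemaker cells, Cacna1d (Cav1.3), had 485 and 714 normalised counts in Hoxb1Mu and 470 and 623 in WT. Here the second library of each group was the higher one, the groups overlapped, and the log2 fold change of 0.12 ± 0.22 turned to -0.16 without Hoxb1Mu 2 and to -0.083 without WT 1.

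Auxiliary subunits bring the channel pores to the membrane and tune their opening. Cacnb2, the main beta subunit gene of heart muscle, had 420.4 and 437 normalised counts in Hoxb1Mu, against 299.6 and 348 in WT, and the groups did not overlap (log2 fold change 0.41 ± 0.12, limma adjusted p = 0.183). Cacna2d2, an alpha-2-delta subunit gene, had 1249.9 and 1482 normalised counts in Hoxb1Mu, against 1096 and 1044 in WT. It was higher in both Hoxb1Mu libraries, more so in the second, with a log2 fold change of 0.35 ± 0.097 (limma adjusted p = 0.178). Cacnb3, another beta subunit gene, differed by 0.14 ± 0.083. Auxiliary subunit genes outside the set went both ways. Cacna2d1 had 342 and 311 normalised counts in Hoxb1Mu, against 462 and 458 in WT (log2 fold change -0.49 ± 0.10, limma adjusted p = 0.155). Cacnb1 had 212 and 295 in Hoxb1Mu, against 144 and 173 in WT (0.66 ± 0.20, limma adjusted p = 0.194). Slc8a1 encodes the sodium-calcium exchanger NCX1, which removes calcium from the cell after each beat. It had 1949 and 2498 normalised counts in Hoxb1Mu, against 1893 and 1725 in WT. Hoxb1Mu 2 stood well above the other libraries and Hoxb1Mu 1 only just above WT 1, and the log2 fold change was 0.29 ± 0.12 (limma adjusted p = 0.281). Without Hoxb1Mu 1, DESeq2 gave Slc8a1 an adjusted p of 0.0258 and called it alone among the 33 genes, beside 3.74% of all tested genes, and without Hoxb1Mu 2 its log2 fold change was 0.11.

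**Figure D2:**
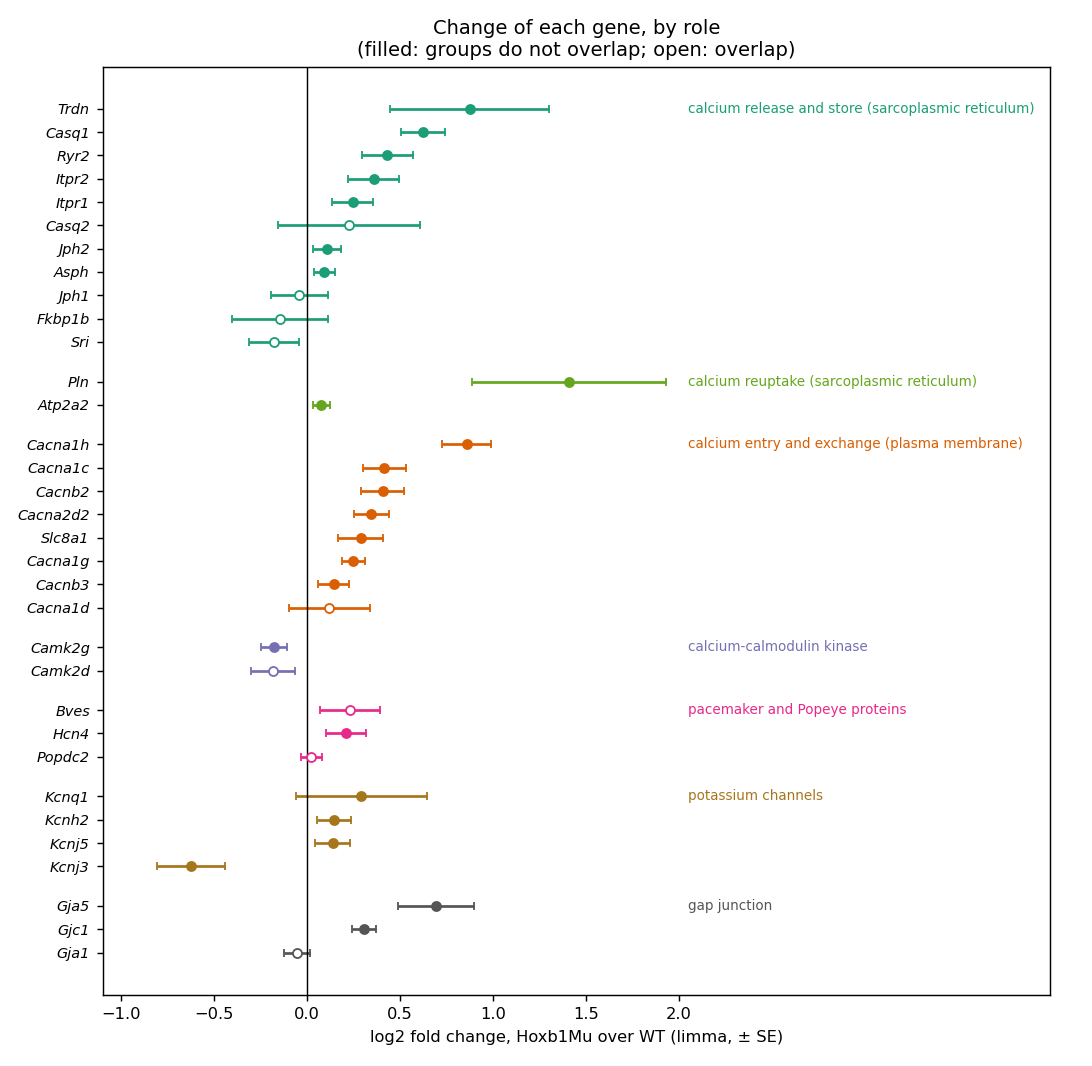
Log2 fold change of Hoxb1Mu over WT (horizontal axis, limma, bars are SE) for each of the 33 genes, ordered within roles. Filled points mark genes whose Hoxb1Mu and WT libraries do not overlap and open points genes whose libraries overlap; all 8 calcium entry and exchange genes lie right of 0, up to 0.86 for Cacna1h, and Kcnj3 lies farthest left at -0.63.

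Among the 11 measured genes of calcium release and storage, 8 were higher and 3 lower, and the median log2 fold change was 0.23. Of these genes, 7 lay above WT in both Hoxb1Mu libraries (26.4% of all tested genes did). The median was 0.33 without WT 2 and 0.13 without WT 1. Ryr2, which encodes the cardiac ryanodine receptor, had 1743 and 2012 normalised counts in Hoxb1Mu, against 1217 and 1579 in WT. Every Hoxb1Mu value was above every WT value, although WT 2 and Hoxb1Mu 1 were near each other, and the log2 fold change was 0.43 ± 0.14 (adjusted p = 0.202 in limma, 0.0634 in DESeq2). DESeq2 called Ryr2 in the fit without WT 2 (adjusted p = 0.0490, beside 0.451% of all tested genes), and without WT 1 the log2 fold change was 0.25. The receptors for inositol trisphosphate, which release calcium on hormone and growth factor signals in most cells, gave smaller differences. Itpr2 had 242 and 223 normalised counts in Hoxb1Mu, against 172 and 189 in WT (log2 fold change 0.36 ± 0.14), and Itpr1 had 2537 and 2769 in Hoxb1Mu, against 2010 and 2485 in WT (0.25 ± 0.11, or 0.093 without WT 1 and 0.40 without WT 2). For both genes the groups did not overlap, with a limma adjusted p of 0.248 for Itpr2 and 0.293 for Itpr1.

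Calsequestrin binds calcium inside the store. Casq1, the isoform known mainly from skeletal muscle, had 352 and 324 normalised counts in Hoxb1Mu, against 223 and 214 in WT. The libraries of a group lay close together and the groups did not overlap, with a log2 fold change of 0.62 ± 0.12 or 54.2% more (adjusted p = 0.155 in limma, 0.0599 in DESeq2). It ranged from 0.57 to 0.68 when any library was left out. Casq2, the isoform of the mature heart, was read only 26 and 28 times in the Hoxb1Mu libraries and 16 and 31 times in the WT libraries. Its WT libraries lay on either side of the Hoxb1Mu ones, the log2 fold change was 0.23 ± 0.38, and it turned to -0.16 without WT 1. Per kilobase of exon, Casq1 was 18.5 and 17.2 times as abundant as Casq2 in Hoxb1Mu and 18.4 and 10.1 times in WT. Exons of Casq1 share 156 bases with Gm17224 on the other strand.

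Trdn encodes triadin, which ties calsequestrin to the ryanodine receptor. It had 51.3 and 40.6 normalised counts in Hoxb1Mu, against 36.1 and 16.4 in WT. The groups did not overlap, but the log2 fold change of 0.88 ± 0.43 was 0.33 without WT 2 and 1.43 without WT 1, and the limma adjusted p was 0.331. Asph, whose locus also encodes junctin, was the most abundant gene of this role by counts, with 4311 and 4326 normalised counts in Hoxb1Mu and 4212 and 3894 in WT (log2 fold change 0.092 ± 0.056). The exons of Asph share 2368 bases with other genes on the opposite strand, among them Clvs1. Junctophilins bridge the plasma membrane and the store. Jph2, the heart isoform, differed by 0.11 ± 0.074 and Jph1 by -0.042 ± 0.15, where Jph1 became 0.17 without Hoxb1Mu 1. Fkbp1b, which encodes the ryanodine receptor stabiliser calstabin 2, had overlapping groups and a log2 fold change of -0.15 ± 0.26, or 0.14 without Hoxb1Mu 2.

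Sri, which encodes the calcium-binding protein sorcin, lay on the lower side. It had 1918 and 1429.9 normalised counts in Hoxb1Mu, against 1895 and 1857 in WT. Only Hoxb1Mu 2 was low, and the log2 fold change of -0.18 ± 0.13 was -0.39 without Hoxb1Mu 1 (limma adjusted p = 0.0340) and 0.032 without Hoxb1Mu 2 (0.926). Hoxb1Mu 2 was also the library in which the yolk sac endoderm list was lowest, and the part of these cells in the level of Sri was not tested.

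The calcium reuptake genes lay at opposite ends of the set, with Atp2a2 the highest and Pln the lowest of the 33 genes by mean normalised count. Atp2a2, which encodes the pump SERCA2, had 23572 and 25040 normalised counts in Hoxb1Mu, against 22949 and 23093 in WT, the highest level of the 33 genes also per kilobase. The groups did not overlap, but the difference was 5.54% (log2 fold change 0.078 ± 0.046, 95% interval -0.035 to 0.19, limma adjusted p = 0.410). Pln encodes phospholamban, the inhibitor of SERCA2. It was read 15 and 27 times in the Hoxb1Mu libraries and 9 and 5 times in the WT libraries, or 15.4 and 25.5 against 9.56 and 4.81 normalised counts. Both Hoxb1Mu libraries were above both WT libraries and the log2 fold change of 1.41 ± 0.52 was the largest of the 33 genes, with an unadjusted limma p of 0.0357, a limma adjusted p of 0.241 and no DESeq2 adjusted p. On the log2(value + 1) scale this understates the ratio of such low values, and it ranged from 0.98 without WT 2 to 1.84 without WT 1. Exons of Pln, 2.759 kilobases in all, share 1785 bases with Cep85l and Gm47644 on the other strand. The strand setting of the counting is not given, so how this overlap affected the counts of Pln is not known. Per kilobase of exon, Atp2a2 was 695 and 446 times as abundant as Pln in Hoxb1Mu and 1089 and 2179 times in WT. The effect of the shared bases on this ratio was not tested.

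The promoters of the calsequestrin pair and of Pln are shown because Casq1 and Casq2 are paralogs with very different levels and Pln had the largest fold change of the set. Each runs from 250 bases before to 50 bases after the start site (RefSeq, GRCm38.p6), at chr1:172219846-172220145 on the minus strand for Casq1, chr3:102086165-102086464 on the plus strand for Casq2 and chr10:53337436-53337735 on the plus strand for Pln. Capitals mark matches to any of 5 motifs, which were searched on both strands. The letters TGATNNAT stood for the joint motif of Hox and Pbx proteins and the letters TGACAG for that of Meis proteins. The letters AGATAA stood for the motif of GATA factors and the letters GGTGTGA for that of T-box factors, and MEF2 sites were searched by their usual consensus.
Casq1 promoter: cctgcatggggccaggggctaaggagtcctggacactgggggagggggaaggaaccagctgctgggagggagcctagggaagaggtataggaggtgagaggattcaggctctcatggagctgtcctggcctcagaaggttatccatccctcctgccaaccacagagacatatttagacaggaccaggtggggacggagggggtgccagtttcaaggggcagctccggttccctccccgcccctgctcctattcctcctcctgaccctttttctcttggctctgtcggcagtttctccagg
Casq2 promoter: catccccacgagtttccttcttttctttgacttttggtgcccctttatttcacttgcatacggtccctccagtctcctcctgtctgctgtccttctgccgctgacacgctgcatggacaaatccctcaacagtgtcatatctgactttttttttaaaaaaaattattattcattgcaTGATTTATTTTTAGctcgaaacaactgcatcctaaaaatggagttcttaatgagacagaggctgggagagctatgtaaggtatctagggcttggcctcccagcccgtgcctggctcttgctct
Pln promoter: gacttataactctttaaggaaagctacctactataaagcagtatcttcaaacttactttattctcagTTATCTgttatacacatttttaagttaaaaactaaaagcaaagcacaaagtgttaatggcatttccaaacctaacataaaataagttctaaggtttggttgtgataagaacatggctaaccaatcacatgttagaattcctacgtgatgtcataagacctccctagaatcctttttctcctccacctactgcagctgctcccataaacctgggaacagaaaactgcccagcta
The Casq1 window held none of these letters. In the Casq2 window a Hox-Pbx match begins at position -73 from the start site and overlaps a MEF2 match on the other strand that begins at -69. The Pln window held a GATA match on the other strand at -183.

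A promoter was listed for 22 of the 34 genes, 28 windows in all. The Hox-Pbx letters occurred in 2 of these windows (Casq2 and Cacna1d) and in 8.85% of all 32851 listed promoters, the Meis letters in 2 (Cacna1c and Kcnh2) and in 19.2%, and the GATA letters in 4 (Gja1, Pln, Popdc2 and Slc8a1) and in 11.2%. T-box letters were in 0 of the 28 windows and in 3.98% of all promoters, and the MEF2 motif, which was added after the values had been seen, was in 1 window (Casq2) and in 1.86%. Such matches describe letters and say nothing about binding of a factor.

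The calcium-calmodulin kinases, which phosphorylate the ryanodine receptor and phospholamban, lay on the lower side. Camk2g had 1539 and 1593 normalised counts in Hoxb1Mu, against 1855 and 1695 in WT. Both Hoxb1Mu libraries were below both WT libraries, with a log2 fold change of -0.18 ± 0.070 (limma adjusted p = 0.254). Camk2d, the main isoform gene of heart muscle, had 751 and 639.5 normalised counts in Hoxb1Mu, against 731 and 846 in WT. Its groups overlapped and the log2 fold change was -0.18 ± 0.12. The kinase genes outside the set lay on the higher side. Camk2a had 474 and 460 normalised counts in Hoxb1Mu, against 380 and 356 in WT, without overlap (log2 fold change 0.34 ± 0.098, limma adjusted p = 0.182). Camk2b had overlapping groups and differed by 0.085 ± 0.23.

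Of the genes tied to pacemaking, Hcn4 encodes the channel of the sinoatrial pacemaker current and marks the early heart tube. It had 684 and 822 normalised counts in Hoxb1Mu, against 636 and 659.8 in WT. The groups did not overlap, Hoxb1Mu 2 was the highest library, and the log2 fold change of 0.21 ± 0.11 was 0.078 without Hoxb1Mu 2 (limma adjusted p = 0.351 with all libraries). The Popeye proteins bind cyclic AMP at the muscle membrane. Popdc2 had 1660.1 and 1697 normalised counts in Hoxb1Mu and 1662 and 1639.9 in WT, so that all 4 libraries were nearly alike (log2 fold change 0.024 ± 0.058, 95% interval -0.12 to 0.17). Its exons share 89 bases with Gm21987 on the same strand. Bves, the Popdc1 gene, had 431 and 593 normalised counts in Hoxb1Mu, against 438 and 422 in WT. Hoxb1Mu 2 alone was high, and the log2 fold change was 0.23 ± 0.16, or 0.0025 without that library.

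The potassium channel genes went both ways. Kcnj3 encodes the channel GIRK1 of atrial and nodal cells, which opens under vagal signals. It had 86.1 and 104 normalised counts in Hoxb1Mu, against 139 and 154 in WT. Both Hoxb1Mu libraries were below both WT libraries, with a log2 fold change of -0.63 ± 0.18 which had an unadjusted limma p of 0.0139 and adjusted p of 0.185 in limma and 0.321 in DESeq2. Its partner subunit GIRK4, encoded by Kcnj5, lay on the other side, with 492 and 531 normalised counts in Hoxb1Mu and 456 and 473 in WT (log2 fold change 0.14 ± 0.095). The exons of Kcnj3 share 1621 bases with Gm26794 on the other strand. Kcnh2, which encodes the channel of the rapid repolarising current, was the most abundant of this role, with 1021 and 1071.5 normalised counts in Hoxb1Mu and 883 and 1015 in WT (0.14 ± 0.091, or 0.044 without WT 1 and 0.24 without WT 2). Kcnq1, which encodes the channel of the slow repolarising current, had 22 and 20 reads in Hoxb1Mu and 16 and 17 in WT (0.29 ± 0.35), and its exons share 121 bases with the antisense gene Kcnq1ot1.

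The gap junction genes differed among themselves. Gjc1, which encodes connexin 45 of the early heart tube and the conduction system, rose in the DESeq2 test. It had 3070.0 and 3307 normalised counts in Hoxb1Mu, against 2666 and 2482 in WT. Both Hoxb1Mu libraries were above both WT libraries, and the log2 fold change of 0.31 ± 0.065 amounted to 23.9% more (adjusted p = 0.0129 in DESeq2, 0.155 in limma). DESeq2 no longer called Gjc1 without any 1 library, with an adjusted p of 0.0761 without Hoxb1Mu 1, 0.999 without Hoxb1Mu 2, 0.252 without WT 1 and 0.639 without WT 2. In these fits DESeq2 called 3.74%, 0.749%, 0.584% and 0.451% of all tested genes, and the log2 fold change of Gjc1 stayed between 0.26 and 0.36. Gjc1 lies on chromosome 11, 6.44 megabases from Hoxb1.

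Gja5, the gene of connexin 40 of atria and fast conduction fibres, had 137 and 158 normalised counts in Hoxb1Mu, against 104 and 78.9 in WT. The groups did not overlap and the log2 fold change was 0.69 ± 0.21 (adjusted p = 0.187 in limma and 0.278 in DESeq2). Gja1 encodes connexin 43, which is made by many embryonic cell types. It had 15457 and 16957 normalised counts in Hoxb1Mu, against 17643 and 16015 in WT, with overlapping groups and a log2 fold change of -0.054 ± 0.068 (95% interval -0.22 to 0.11). The ratio of Gja1 to Gjc1 per kilobase of exon was 2.46 and 2.50 in Hoxb1Mu and 3.23 and 3.15 in WT. The ratio of Gja1 to Gja5 was 63.0 and 60.3 in Hoxb1Mu and 94.9 and 114 in WT.

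Set side by side, the roles had different medians that rest on few genes each. On the log2 scale the medians were 0.32 for the 8 calcium entry and exchange genes, 0.23 for the 11 release and store genes, 0.74 for Pln and Atp2a2 together, 0.31 for the 3 gap junction genes, 0.21 for the 3 pacemaker and Popeye genes, 0.14 for the 4 potassium channel genes and -0.18 for the 2 kinase genes. The 13 genes of the sarcoplasmic reticulum had 10 on the higher and 3 on the lower side, and a median of 0.23. The 25 genes outside calcium entry had 18 on the higher and 7 on the lower side, with a median of 0.14. Leaving out Hoxb1Mu 2 brought the median of the entry genes to 0.22 and that of the pacemaker and Popeye genes to 0.0082, against 0.45 and 0.34 without Hoxb1Mu 1. These differences between roles were described and not tested.

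**Figure D3:**
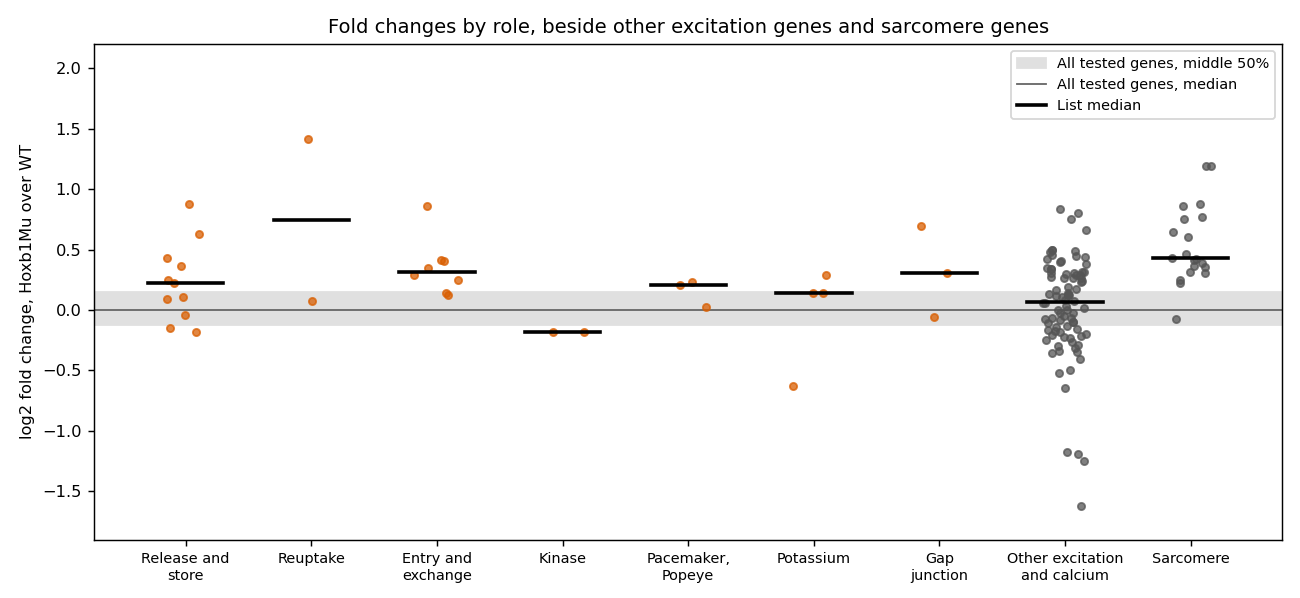
Log2 fold change of Hoxb1Mu over WT (vertical axis, limma) for each gene, by role, beside other excitation and calcium genes and the sarcomere list; each point is a gene, black bars are list medians, and the grey line and band are the median and the middle 50% of all tested genes. The medians are 0.32 for entry and exchange, 0.23 for release and store, 0.07 for the 86 other excitation and calcium genes and 0.43 for the 20 sarcomere genes.

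Genes of the same pathways outside the set showed a mixed picture. Of 103 such genes, among them sodium channels, other potassium and calcium channel subunits, pumps, calcium sensors and connexins, 86 were measured, 49 were higher and 37 lower, and the median log2 fold change was 0.070. limma and edgeR called 0 of them. At an unadjusted p under 0.05, limma had 14 higher and 13 lower, beside 8.80% and 9.82% of all tested genes. At this limit edgeR had 24 in all, beside 2869 of the 15760 genes tested by limma (edgeR itself tested 15732). DESeq2 called 0 higher and 5 lower (beside 1.50% and 2.02% of all tested genes), with no adjusted p for 31. Of the 7 sodium channel genes measured, 6 lay on the higher side (median 0.44), beside 50.1% of all tested genes. DESeq2 gave no adjusted p to 4 of them. The other groups had lower medians. These were 0.29 for pacemaker channels and Popeye (3 higher, 1 lower), 0.15 for release and store (10 and 4) and 0.13 for potassium channels (12 and 7). They were -0.036 for calcium sensors and regulators (8 and 10), -0.064 for calcium channel subunits (4 and 5), -0.16 for pumps and exchangers (4 and 7) and -0.52 for connexins (2 and 2).

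Of the genes that fell in the DESeq2 test, 4 are described, which serve ion pumping, store refilling, calcium sensing and cell coupling. Atp1b1, the beta subunit gene of the sodium-potassium pump, had 1834 and 1359 normalised counts in Hoxb1Mu, against 2356 and 2592 in WT (log2 fold change -0.65 ± 0.14, DESeq2 adjusted p = 0.00129). Stim1, the store calcium sensor gene, had 794 and 606 in Hoxb1Mu, against 967 and 1026 in WT (-0.52 ± 0.14, DESeq2 adjusted p = 0.0427). In both genes all Hoxb1Mu values were below all WT values. S100a1, a calcium-binding protein gene of muscle, had 346 and 174 normalised counts in Hoxb1Mu, against 494 and 637 in WT (-1.19 ± 0.32, DESeq2 adjusted p = 0.0129). Gjb2, the connexin 26 gene of epithelia, had 259 and 129 in Hoxb1Mu, against 331 and 578 in WT (-1.25 ± 0.39, DESeq2 adjusted p = 0.0252). In these 4 genes Hoxb1Mu 2 was the lowest library, as it was for the summed yolk sac endoderm list, and the part of those cells was not tested. Without Hoxb1Mu 1, DESeq2 called 6 of the 86 genes and limma 9, beside 3.74% and 5.97% of all tested genes. Without Hoxb1Mu 2, WT 1 or WT 2 both called 0, beside at most 0.749% of all tested genes.

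Levels per kilobase of exon ordered the related genes of each family in nearly the same way in both genotypes. Ryr2 stood at 60.5 and 69.9 normalised counts per kilobase in Hoxb1Mu and 42.3 and 54.9 in WT, far above Ryr1 (7.65 and 8.68 in Hoxb1Mu, 7.05 and 6.52 in WT) and Ryr3. Among the pores of voltage-gated calcium channels the T-type gene Cacna1g was highest, at 158 and 166 per kilobase in Hoxb1Mu and 136 and 136 in WT. Cacna1h stood at 26.6 and 27.3 per kilobase in Hoxb1Mu and 14.5 and 15.2 in WT, so that the ratio of Cacna1g to Cacna1h was 5.95 and 6.06 in Hoxb1Mu and 9.39 and 8.99 in WT. Cacna1a, a neuronal pore gene, stood at 26.9 and 27.8 per kilobase in Hoxb1Mu, where its range overlapped that of Cacna1h, and at 26.3 and 23.9 in WT, where both values were above those of Cacna1h.

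The skeletal muscle channel gene Cacna1s was the pore with the lowest log2 fold change, with 51.3 and 16.0 normalised counts in Hoxb1Mu, against 90.3 and 91.4 in WT (-1.62 ± 0.52, limma adjusted p = 0.205, no DESeq2 adjusted p). Its size depended on Hoxb1Mu 2, since the log2 fold change was -0.81 without that library and -2.43 without Hoxb1Mu 1. Cacna1s was chosen for mention after its values had been seen. Atp2a2 exceeded the other SERCA genes by far, at 3876 and 4118 per kilobase in Hoxb1Mu and 3774 and 3798 in WT, while Atp2a1, the skeletal isoform, had 18.3 and 19.3 in Hoxb1Mu and 9.78 and 11.6 in WT. Hcn4 was the highest HCN gene, at 112 and 134 per kilobase in Hoxb1Mu and 104 and 108 in WT, and 2.74 and 3.40 times as abundant as Hcn2 in Hoxb1Mu and 3.04 and 3.51 times in WT. Gja1, Gjc1 and Gja5 followed each other in this order in all 4 libraries. The order of the group means differed between genotypes for the pore genes Cacna1b and Cacna1d, whose libraries overlapped in both genotypes, and for the scarce pore genes Cacna1e and Cacna1i. It also differed for the inositol trisphosphate receptor genes, where the ratio of Itpr3 to Itpr1 was 1.08 and 0.858 in Hoxb1Mu and 1.55 and 1.29 in WT.

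**Figure D4:**
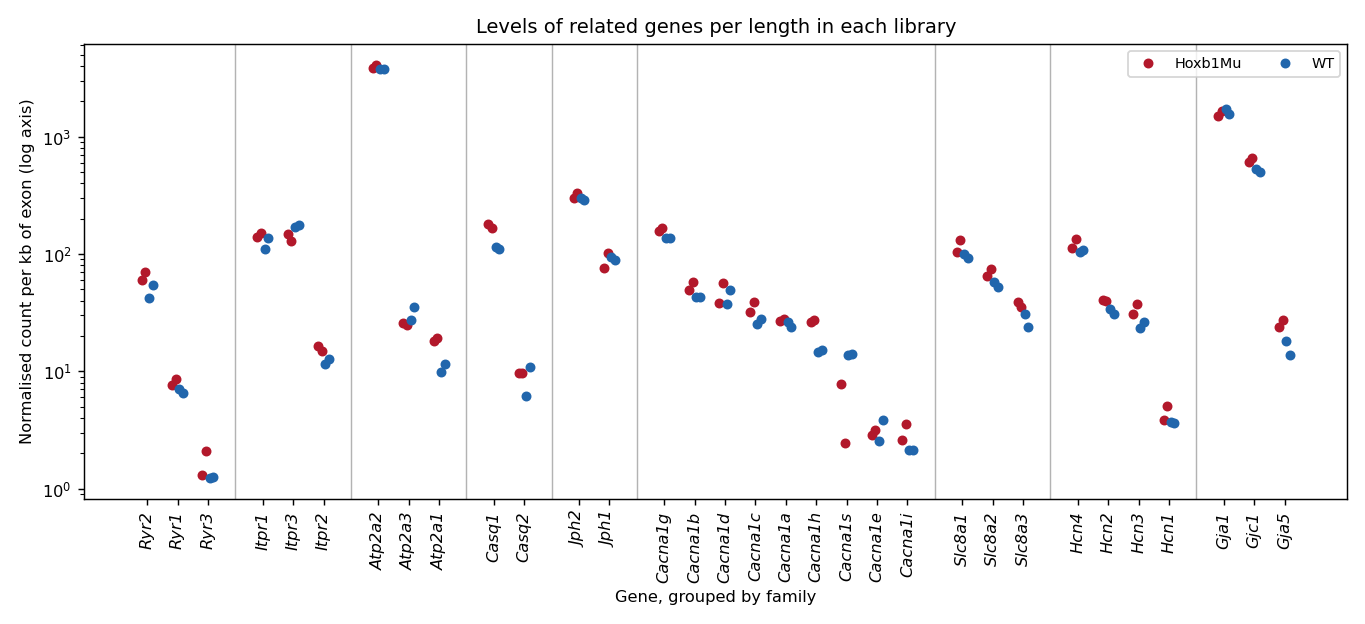
Normalised counts per kilobase of exon (log axis) for related genes, grouped by family along the horizontal axis, with 2 Hoxb1Mu libraries in red left of 2 WT libraries in blue. Within each family the spacing between genes is mostly wider than that between genotypes, with Atp2a2 between 3774 and 4118 and Ryr3 between 1.23 and 2.09 normalised counts per kilobase.

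The cardiomyocyte sarcomere genes had a higher median fold change than the calcium handling and channel genes, many of which are also used by other cells. This difference was not tested. Of 22 listed sarcomere genes 20 were measured, 19 were higher and 1, Tpm1, was lower, and the median log2 fold change was 0.43. DESeq2 called 12 of them, all higher, beside 1.50% of all tested genes, and limma 0, with 18 higher at an unadjusted p under 0.05, beside 8.80%. The called genes were Myh7, Myl2, Actn2, Myom1, Ttn, Mybpc3, Actc1, Myl7, Tnni1, Myl4, Myl3 and Tnnt2, with log2 fold changes between 0.25 and 1.19. The study chose some of these genes on the same libraries, so their count is not independent evidence of a direction. The neural crest list had a median log2 fold change of 0.51, and DESeq2 called 5 of its 8 genes, all higher (1.50% of all tested genes). Whether the higher levels of Cacna1h, Gjc1 and their neighbours in the set follow the share of cardiomyocytes, or of other cells, in the dissected region was not tested.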

How the data were processed

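RNA of the SHF region was sequenced after cDNA amplification. Per the submitters' processing notes, reads were converted with bcl2fastq 2.17.1.14, aligned to mm10 with STAR 2.5.2, counted per gene with HTSeq and normalised with DESeq2. The deposited values are signal, that is, the gene counts of a library after the authors had scaled them by its DESeq2 size factor. Its further columns, the authors' mean signal, log2 fold change, Wald score and p-value columns, hold their own comparison and were not used. For 13 genes a spreadsheet program had replaced the symbol with a date, so they were tested unnamed. The methods of the study also describe quantification by RSEM against Ensembl gene models, followed by edgeR, but the values here were taken to be those of HTSeq and DESeq2. The annotation behind these counts and the strand setting are not given in the sources used here.

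Each signal was a whole multiple of the value of 1 read in its library (100% of values, tolerance 0.001 of a read), so whole read counts were recovered. These cover listed genes only, and amplified reads without molecular identifiers are not independent molecules. limma-trend (limma 3.58.1, R 4.3.3) was fitted to log2(normalised count + 1) for genes whose mean reached 10 (15760 tested, 43 left out), with genotype as the only term and a Benjamini-Hochberg adjusted p under 0.05. All tests were 2-sided. DESeq2 1.42.0 and edgeR 4.0.16 (quasi-likelihood, TMM, 15732 genes) were run on the recovered reads as alternatives. DESeq2 left 3972 genes without an adjusted p. Other alternatives were pseudocounts of 0.5 and 10, no filter, a mean of at least 50, equal totals, no trend and leaving out each library. The 3 tests on all 4 libraries were tested on simulated data. An exact permutation test of a single gene cannot go below p = 0.333 with 2 libraries against 2, so none was run.

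Gene positions and exon lengths came from GENCODE vM21 on mm10. Exons of 15 of the 33 genes share bases with another gene, in 14 of them on the other strand only. The genes named with full values were those called by any tool, the gene of highest mean in each role and up to 3 genes per role with the largest change, and every other gene of the set is given by its difference. The genes of the set, the pathway lists and the marker lists were chosen with earlier results of these data known. Some genes of these lists are counted but not reported here by name.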

Additional observations from a re-analysis of the deposited data

How the results depend on the processing

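Under other settings and without 1 library, 392 fold changes of the 33 genes were computed, and in 376 of them the direction and the side of the threshold were those of the limma result. In 8 the direction was opposite, all in fits without 1 library, with ranges of -0.16 to 0.61 for Casq2, -0.25 to 0.17 for Jph1, -0.43 to 0.14 for Fkbp1b, -0.39 to 0.032 for Sri, -0.16 to 0.40 for Cacna1d and -0.12 to 0.016 for Gja1. The number of genes called by limma, 0, was 2 with DESeq2 and ran from 0 to 6 without 1 library. For the other excitation and calcium genes 0 calls became 5 with DESeq2 and ran from 0 to 9 without 1 library. The 2 DESeq2 calls ran from 0 to 1 in DESeq2 fits without 1 library, which were added after seeing the data. The median of the 33 genes ran from 0.11 to 0.28 without 1 library. The median of the release and store genes, 0.23, was 0.18 with DESeq2 and with edgeR (0.178 and 0.177), 0.16 with a pseudocount of 10 and 0.11 with a mean of at least 50, which drops its scarcest genes, and ran from 0.13 to 0.33 without 1 library. That of Atp2a2 and Pln was 0.45 with a pseudocount of 10 and 0.078 with a mean of at least 50, where Pln drops out. Without 1 library the entry and exchange median ran from 0.22 to 0.45, the pacemaker and Popeye median from 0.0082 to 0.34 and the potassium channel median from 0.078 to 0.20. Hoxb1 was past the threshold with DESeq2 (-2.09), and its limma log2 fold change ran from -2.23 to -1.95 without 1 library, past the threshold without Hoxb1Mu 1 (adjusted p = 1.66e-04) and without Hoxb1Mu 2 (0.00199). The causes of these differences between settings were not tested beyond the dropped genes named. No scaling moved the median of all genes by more than 0.029. No paired analysis was possible because the labels give no replicate number shared between the genotypes. With 2 libraries a group, and 5 to 31 reads of Pln and Casq2 per library, small differences were not detectable.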
